A study of Mus musculus with 26 samples.

Results

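The SLAM signalling route was followed through 7 genes in 26 RNA-seq libraries of mouse thymic natural killer T (NKT) cells and their proposed precursors. They were chosen by name: the receptors Slamf1 (CD150), Slamf6 (Ly108), Ly9 (CD229), Cd84 and Cd244 (2B4), the adaptor gene Sh2d1a, which encodes SAP, and the kinase gene Fyn. All 7 were found once in every library, among 23168 gene symbols kept. DN1eP-NKT, with 4 libraries, were the progeny of DN1eP thymocytes grown for 10 days over OP9/Dll-1 stroma with IL-2 and IL-7 at 5 ng/ml each, and carried the Vα14Jα18 TCR at the surface. Stage-1 NKT cells (NKT-1; CD44- NK1.1-; 5 libraries), stage-2 cells (NKT-2; CD44+ NK1.1-; 7 libraries) and stage-3 cells (NKT-3; CD44+ NK1.1+; 6 libraries) were sorted from thymus as TCRβ+ cells that bound αGalCer-loaded CD1d dimer. DN1eP, with 4 libraries, were sorted straight from thymus without that TCR at the surface, through a gate for CXCR3, CD27, CD5 and CD44 with low CD24 and without CD25, Ly108 or lineage markers. All groups were wild-type C57BL/6 mice of 6 to 8 weeks, with no transgene or deletion. The labels do not say whether libraries of one group came from separate mice, so p-values measure only the spread between these libraries, which may be technical.

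SLAM receptors are surface molecules of blood cells, and most of them bind a copy of themselves on a neighbouring cell; Cd244 instead binds CD48. Their tails recruit SAP, which brings in the kinase Fyn. NKT cells are selected in the thymus by CD1d on other thymocytes, and in mice SLAMF1 and SLAMF6 contacts between thymocytes, SAP and Fyn are needed for NKT cells to form in normal numbers. The comparisons asked how the transcripts of this route stand at each thymic stage, in DN1eP, and in the NKT cells that DN1eP gave in culture.

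The 5 receptor genes lie in 1 cluster on chromosome 1 (mm9, the build of the deposited tables), which spans chr1:173489324-173873999 and also holds Slamf7 and Cd48. Cd244 (chr1:173489324-173515447) and Slamf6 (chr1:173847668-173873999) stand at its opposite ends, with Ly9 (chr1:173518744-173537491), Slamf1 (chr1:173697263-173731315) and Cd84 (chr1:173769828-173820849) between them. Sh2d1a lies at chrX:39855785-39875252 and Fyn at chr10:39089605-39285180. The promoters of the 2 end genes are shown because those genes moved in opposite directions at stage 3. They are the 250 bases before each gene's start in RefSeq (GRCm38.p6, plus strand for both; 5 of the 7 genes had an entry), at chr1:171917212-171917461 for Slamf6 and chr1:171558943-171559192 for Cd244.
Slamf6: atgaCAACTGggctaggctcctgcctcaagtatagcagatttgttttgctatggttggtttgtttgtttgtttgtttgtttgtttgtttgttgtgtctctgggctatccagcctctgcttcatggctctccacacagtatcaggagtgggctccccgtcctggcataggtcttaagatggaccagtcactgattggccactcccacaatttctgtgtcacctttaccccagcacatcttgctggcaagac
Cd244: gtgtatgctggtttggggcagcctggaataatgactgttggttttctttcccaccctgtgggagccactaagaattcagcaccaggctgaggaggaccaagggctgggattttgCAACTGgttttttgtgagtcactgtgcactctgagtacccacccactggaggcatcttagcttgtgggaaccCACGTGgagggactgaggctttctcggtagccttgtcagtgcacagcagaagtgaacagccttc
Capitals mark matches to the E-box letters CANNTG, 1 in the Slamf6 window and 2 in the Cd244 window. An E-box match was present in 66.0% of the 27025 promoters of that length in the table. Both strands were also searched for the T-box half-site GTGTGA (in 12.2% of promoters), the RUNX letters TGTGGT (14.2%) and the ETS letters CAGGAAG (10.5%), and none of these was in either window.

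The values were deposited as FPKM, that is fragments scaled by transcript length and by the library's mapped fragments, so they can be compared between genes per length. Fragment totals were not given, and depth is unknown; the median half-width of the deposited 95% interval for genes of 20 to 100 FPKM ran from 5.53% to 23.7% of the value across libraries. The libraries fell into 2 sets of 13 by the median FPKM of expressed genes, 12.96 to 13.9 in the higher-median set and 7.58 to 9.80 in the lower-median set. All 4 DN1eP-NKT libraries were in the higher set and all 4 DN1eP libraries in the lower, while each thymic stage had libraries in both. Within the lower set the median interval half-width was 5.53% to 6.31% in the thymic stages and 6.23% in DN1eP library 1. It was 23.7%, 23.7% and 18.8% in DN1eP libraries 2, 3 and 4. In the higher set, library 1 of NKT-1, DN1eP-NKT and NKT-2 had 6.87% to 7.61% and the others 15.3% to 21.9%. The labels name 2 library kits without giving the kit of each library. Differences between groups were therefore fitted on log2(FPKM + 1) with the library set as a term, by limma with Benjamini-Hochberg adjustment over 11663 genes, and a gene is called at an adjusted p under 0.05. That term was estimated from the 18 thymic NKT libraries and assumed to hold for the other groups. T-lineage markers were at 1 FPKM or more in every library (6 of 6). They summed to 1487 to 2031 FPKM in DN1eP-NKT, to 1944 to 2631 FPKM in NKT-1, 1792 to 3033 FPKM in NKT-2 and 2930 to 3539 FPKM in NKT-3 of the same set, and to 4853 to 6573 FPKM in DN1eP. In DN1eP-NKT, 6 to 7 of 7 stroma markers reached 1 FPKM and summed to 73.3 to 383 FPKM, against at most 2.44 FPKM in any other library.

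**Figure D1:**
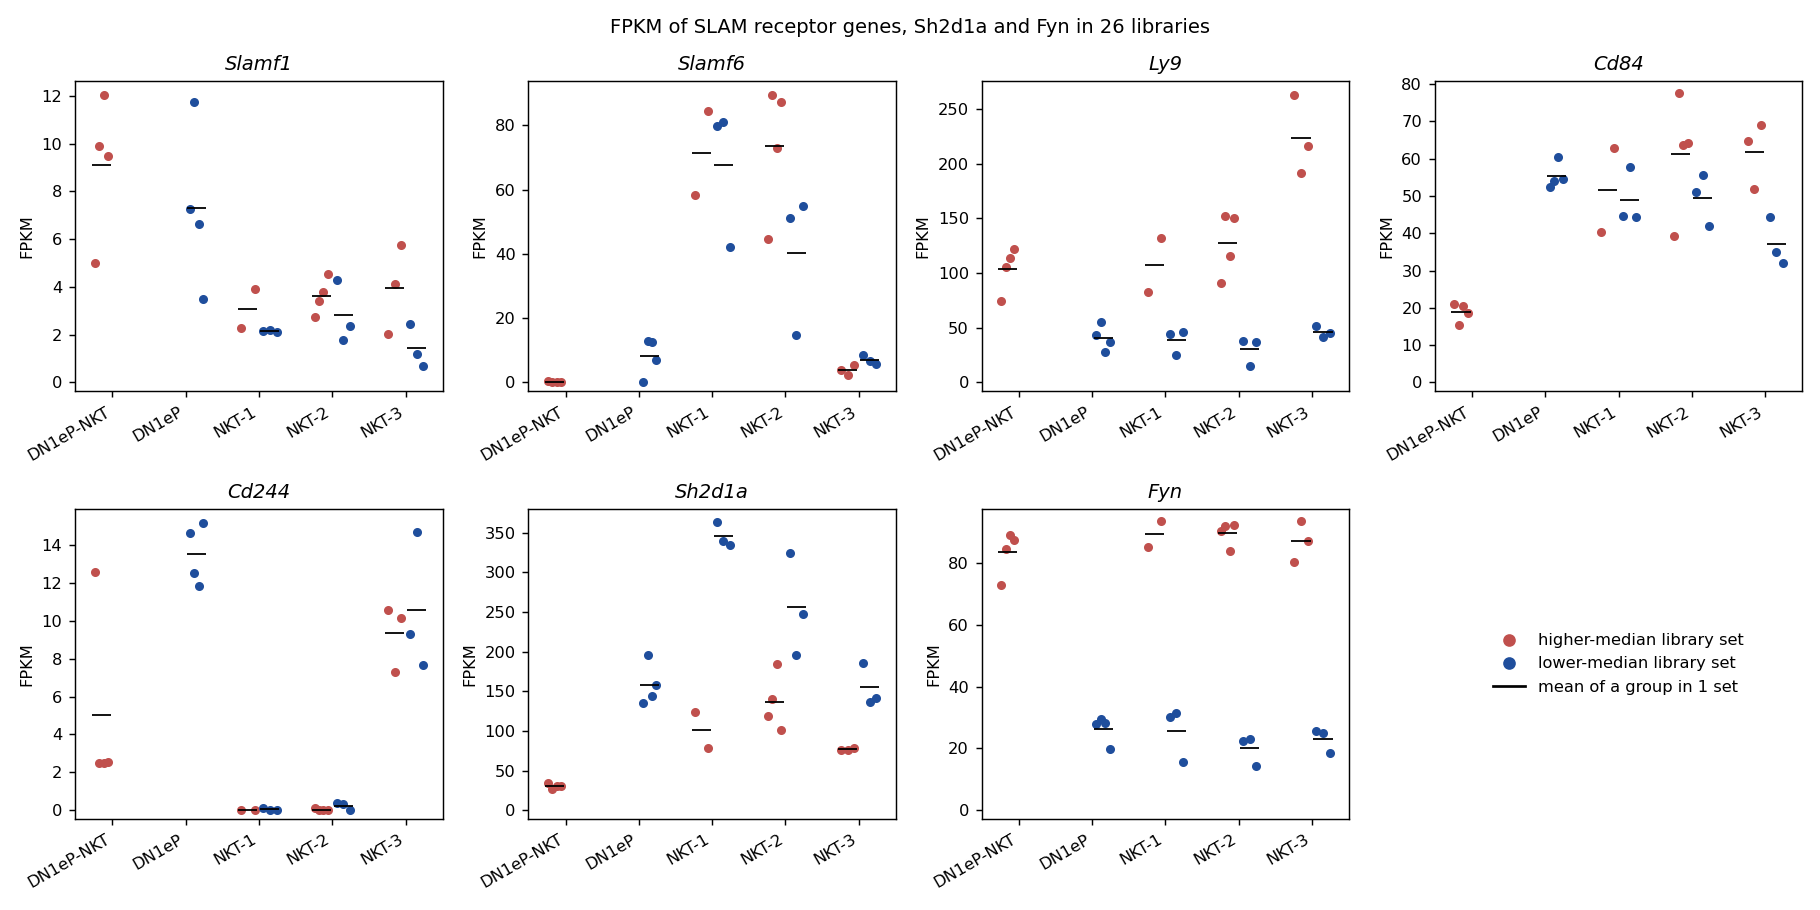
FPKM of the 7 genes (one panel each) in every library, by group; red points are the higher-median library set, blue points the lower-median set, and lines are means of a group within 1 set. Slamf6 was at 14.8 FPKM or more in each NKT-1 and NKT-2 library and at 8.58 FPKM or less in each NKT-3 and DN1eP-NKT library, and Fyn split by library set at every thymic stage.

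Between stage 2 and stage 1, none of the 7 genes was called. Limma called 0 of 7 and 0 of 7 also at an unadjusted p under 0.05, while 0.506% of all tested genes were higher and 0.292% lower in NKT-2. These all-gene counts are small and moved with single libraries: 59 were higher and 34 lower as fitted, against 41 and 19 without NKT-1 library 2 and 37 and 38 without NKT-1 library 5. At stage 3, 4 of the 7 genes were called: Slamf6 and Sh2d1a lower, and Cd244 and Ly9 higher. The same 4 were called against NKT-1, where 10.4% of all genes were higher and 27.4% lower in NKT-3, and against NKT-2, where 10.9% were higher and 18.6% lower. As a count, 2 of 7 lower was near the share of all genes lower against NKT-1. The Ly9 and Sh2d1a calls against both stages were lost without the set term. The 2 comparisons share the NKT-3 libraries. The median difference of the 7 genes was -0.09 against NKT-1 and -0.18 against NKT-2 on the log2 scale, beside -0.17 and -0.06 for all genes. In bulk samples, fewer cells of a type and less RNA per cell cannot be told apart. By the test over all 3 stages at once, which called 37.8% of genes, Slamf6, Ly9, Cd244 and Sh2d1a were called.

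DN1eP-NKT differed from each thymic stage in more of the 7 genes. Against NKT-1 and against NKT-2, Slamf1 and Cd244 were higher and Slamf6, Cd84 and Sh2d1a lower. Over all genes, 10.2% were higher and 11.5% lower in DN1eP-NKT than in NKT-1, and 12.2% were higher and 8.45% lower than in NKT-2. Against NKT-3, Slamf1 alone of the 7 was higher and Slamf6, Ly9, Cd84, Cd244 and Sh2d1a were lower, where 17.6% of all genes were higher and 8.55% lower. The median difference of the 7 genes there was -1.04 on the log2 scale, against 0.09 for all genes. Against NKT-1 and NKT-2 it was -0.34 and -0.23, beside -0.10 and 0.02 for all genes. These 3 comparisons share the DN1eP-NKT libraries. Their cells were grown from DN1eP sorted as Ly108-, and the part of that gate in the Slamf6 calls was not tested.

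DN1eP were sorted as Ly108-, so the calls of Slamf6 against DN1eP in this paragraph go with the gate and are a description. Set against DN1eP, NKT-1 had Slamf6 and Sh2d1a higher and Slamf1 and Cd244 lower, with 20.7% of all genes higher and 18.9% lower. NKT-2 differed from DN1eP in the same 4 genes and directions, with 15% of all genes higher and 21.3% lower. NKT-3 differed from DN1eP in Slamf1 alone, which was lower, with 5.79% of all genes higher and 17% lower. DN1eP-NKT had 4 of the 7 lower than DN1eP (Cd84, Cd244, Sh2d1a and Slamf6) and none higher, with 15.1% of all genes higher and 17% lower. The median of the 7 in this last comparison was -1.15, against -0.05 for all genes. Its libraries never share a set, so without the assumption on the set term, library set and group cannot be told apart in it.

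The balance of calls over all genes moved with the scaling. Under quantile normalization the share of calls that were higher was 80.3% for NKT-2 against NKT-1 (63.4% as fitted), 47.1% for NKT-3 against NKT-1 (27.6%) and 48.3% for NKT-3 against NKT-2 (36.8%). It was 47.0% for DN1eP-NKT against NKT-2 (59.0%), 47.0% against NKT-3 (67.4%), 51.5% for NKT-2 against DN1eP (41.4%) and 50.1% for NKT-3 against DN1eP (25.4%). Upper-quartile scaling gave 76.1%, 42.9%, 56.6%, 55.6% and 54.9% for NKT-2 against NKT-1, NKT-3 against NKT-1, DN1eP-NKT against NKT-3, NKT-2 against DN1eP and NKT-3 against DN1eP, and 57.6% for DN1eP-NKT against DN1eP (47.1% as fitted). The median of all genes moved by at most 0.22 in size on the log2 scale, and no call among the 7 genes was lost under either scaling.

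Slamf6, which encodes Ly108, was high at stages 1 and 2 and low at stage 3. Its level was 0.329 FPKM in DN1eP-NKT library 1 and it was listed at 0 in the other 3 DN1eP-NKT libraries. In NKT-1 it was at 58.3 and 84.6 FPKM in the higher set and 79.8, 81.1 and 42.2 FPKM in the lower set. NKT-2 held it at 44.7, 89.3, 72.9 and 87.2 FPKM in the higher set and 51.2, 14.8 and 54.9 FPKM in the lower. These 2 stages overlapped in each set. NKT-3 had 3.73, 2.45 and 5.36 FPKM in the higher set and 8.58, 6.67 and 5.86 FPKM in the lower. No NKT-3 library overlapped NKT-1 or NKT-2 in either set. The NKT-3 mean of the higher set, 3.84 FPKM, was 18.6-fold lower than the NKT-1 mean of 71.5 and 19.1-fold lower than the NKT-2 mean of 73.5 FPKM. In the lower set the NKT-3 mean was 7.04 FPKM, 9.63-fold below NKT-1 and 5.73-fold below NKT-2.

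The fitted log2 difference of Slamf6 was -3.49 ± 0.51 (SE) for NKT-3 against NKT-1 (limma, adjusted p = 9.7e-06) and -3.11 ± 0.47 against NKT-2 (adjusted p = 1.9e-05). NKT-2 differed from NKT-1 by -0.38 with a 95% interval of -1.40 to 0.65. Within the higher set the differences were -3.92 (adjusted p = 2.9e-07) and -3.94 (adjusted p = 3.8e-08). Within the lower set they were -3.05 (adjusted p = 0.027) and, against NKT-2, -2.17, which did not pass (adjusted p = 0.17). That last set holds the lowest NKT-2 library, with 14.8 FPKM, in which B-cell markers summed to 137 FPKM and erythroid markers to 199 FPKM. NKT-3 library 5 had 42.5 FPKM of B-cell and 827 FPKM of erythroid markers. Without these 2 libraries the Slamf6 differences over both sets were -3.53 and -3.49 and both were called. The lower set alone then gave -3.02 against NKT-1 (adjusted p = 0.065) and -2.74 against NKT-2 (adjusted p = 0.21).

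Slamf6 in DN1eP was at 0.174, 13.0, 12.7 and 7.11 FPKM. Since Ly108- cells were sorted for DN1eP, this level belongs to the gate and is given as a description. DN1eP-NKT were grown from cells of that gate, and its part in their Slamf6 level was not tested. DN1eP-NKT lay below every stage, with log2 differences of -6.08 ± 0.61 against NKT-1 (limma, adjusted p = 6.8e-08), -5.71 ± 0.55 against NKT-2 (adjusted p = 3.6e-08) and -2.59 ± 0.58 against NKT-3 (adjusted p = 0.0015). Against NKT-3 the higher set alone gave -2.13 (adjusted p = 1.9e-05). NKT-1 and NKT-2 stood above DN1eP by 3.32 ± 0.58 and 2.94 ± 0.57; the NKT-2 value did not pass when only those 2 groups were fitted (2.46, adjusted p = 0.069). DN1eP library 1, which has the low value, also stands apart in its mast and basophil markers. These summed to 56.3 FPKM, against 380 to 450 FPKM in the other 3. Its myeloid markers summed to 273 FPKM, against 23.8 to 34.0 FPKM. Its NK and innate lymphoid markers summed to 694 FPKM, against 446 to 512 FPKM. Its median interval half-width was 6.23%, against 18.8% to 23.7%. Without this library the differences of NKT-1 and NKT-2 from DN1eP were 2.49 and 2.11. That of DN1eP-NKT against DN1eP was then -3.59 in place of -2.77. The latter was not called with replicate number as a further term (limma, -2.58, adjusted p = 0.058).

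Cd244, the receptor for CD48 that is known from NK cells, followed the opposite course. In NKT-1 it was listed at 0 in 3 libraries and at 0.120 and 0.0134 FPKM in the other 2. In NKT-2 it was listed at 0 in 4 libraries and at 0.125, 0.396 and 0.332 FPKM in the other 3. NKT-3 had 10.6, 7.32 and 10.1 FPKM in the higher set and 9.32, 14.7 and 7.67 FPKM in the lower. Every NKT-3 library was thus above every NKT-1 and NKT-2 library, and the 2 library sets overlapped. The log2 difference was 3.40 ± 0.25 against NKT-1 (limma, adjusted p = 2.7e-11) and 3.26 ± 0.23 against NKT-2 (adjusted p = 1.7e-11), and both were called within each set. A pseudocount of 1 makes these differences smaller than the ratios of FPKM.

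Cd244 was at 12.6 FPKM in DN1eP-NKT library 1 and at 2.48, 2.50 and 2.57 FPKM in the other 3. DN1eP had 14.6, 12.5, 11.8 and 15.2 FPKM, and the difference of NKT-3 from DN1eP was -0.36 with an interval of -0.95 to 0.24. DN1eP-NKT were above NKT-1 by 2.36 ± 0.31 (limma, adjusted p = 8.0e-07) and above NKT-2 by 2.22 ± 0.28 (adjusted p = 3.9e-07). They were below NKT-3 by a difference of -1.04 ± 0.29 (adjusted p = 0.0076) and below DN1eP by -1.40 ± 0.36 (adjusted p = 0.0038). The call against NKT-3 was not made within the higher set (-1.05, adjusted p = 0.053) or with only those 2 groups fitted (adjusted p = 0.099), and both of these calls were lost with a pseudocount of 0.1 (adjusted p = 0.16 for each). Without DN1eP-NKT library 1 the 4 differences were 1.87, 1.73, -1.53 and -1.88 in the same order. With replicate number as a further term, the call against DN1eP was lost (limma, -1.18, adjusted p = 0.071).

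Markers of NK cells and innate lymphoid cells were, like Cd244, higher in NKT-3 and DN1eP than in NKT-1 and NKT-2 by their sum. Their 5 genes summed to 175 FPKM in DN1eP-NKT library 1 and to 26.7 to 34.1 FPKM in the other 3, to 4.56 to 13.9 FPKM in NKT-1, to 16.7 to 49.5 FPKM in NKT-2, to 488 to 662 FPKM in NKT-3 and to 446 to 694 FPKM in DN1eP. In NKT-3, 3 to 4 of the 5 genes reached 1 FPKM. Klrb1c, which encodes the NK1.1 used to sort stage 3, gave 440 to 563 FPKM of the NKT-3 sum. The NK receptor gene Ncr1 was at 1.17 to 36.2 FPKM in DN1eP-NKT, 0.544 to 3.82 FPKM in NKT-3 and 42.1 to 60.0 FPKM in DN1eP, and it was listed at 0 in all NKT-1 libraries. Eomes, another of the 5, did not follow Cd244. It was at most 0.322 FPKM in NKT-3, 1.21 to 5.20 FPKM in DN1eP and 4.65 to 54.9 FPKM in DN1eP-NKT. The marker sum of NKT-2 also overlapped that of DN1eP-NKT, though Cd244 was lower in every NKT-2 library. The part of these markers in the Cd244 result was not tested.

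**Figure D2:**
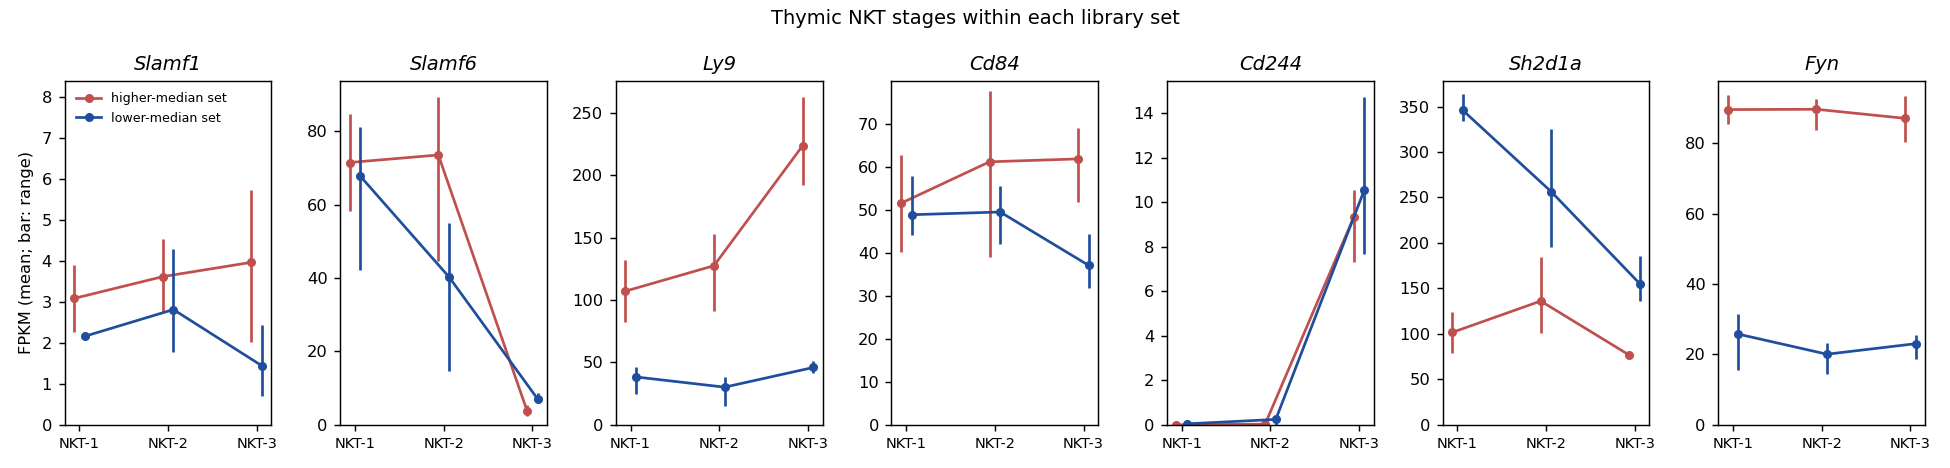
Mean FPKM of each gene at stages 1, 2 and 3 of thymic NKT cells, drawn separately for the higher-median (red) and lower-median (blue) library set; bars run from the lowest to the highest library. In both sets Slamf6 and Sh2d1a were lowest and Cd244 highest at stage 3. The sets differed in level most for Ly9, Sh2d1a and Fyn, and less for Slamf1 and Cd84.

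Ly9, which encodes the homophilic receptor CD229, was at 74.8, 105, 114 and 122 FPKM in DN1eP-NKT. NKT-1 had 82.5 and 132 FPKM in the higher set and 44.0, 24.6 and 46.4 FPKM in the lower. NKT-2 had 91.0, 153, 116 and 151 FPKM in the higher set and 38.1, 15.2 and 37.3 FPKM in the lower. At both stages, and at stage 3, every library of the higher set was above every library of the lower set. NKT-3 had 263, 192 and 216 FPKM in the higher set and 51.2, 41.3 and 45.3 FPKM in the lower. DN1eP had 43.2, 55.1, 28.1 and 37.0 FPKM. The library sets differed more than the stages: in thymic cells the higher set lay above the lower by 1.99 ± 0.19 on the log2 scale (limma, adjusted p = 3.4e-09), in a contrast where 54% of all genes were higher and 20.7% lower.

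NKT-3 exceeded NKT-2 in Ly9 without overlap in both sets, 1.75-fold in the higher and 1.52-fold in the lower by their means. It exceeded NKT-1 2.09-fold in the higher set, and in the lower set the 2 stages overlapped at 1.20-fold. The fitted differences were 0.75 ± 0.22 against NKT-2 (limma, adjusted p = 0.0091) and 0.64 ± 0.24 against NKT-1 (adjusted p = 0.033). Within the lower set neither passed (adjusted p = 0.30 against NKT-2 and 0.63 against NKT-1), nor did either without the set term (0.61 and 0.84, adjusted p = 0.61 and 0.39). Without NKT-2 library 6, the lower-set NKT-2 mean was 37.7 FPKM, beside 45.9 FPKM in NKT-3. The lower set without that library and NKT-3 library 5 gave 0.35 against NKT-2 (limma, adjusted p = 0.755). The call against NKT-1 was also lost when NKT-1 library 1, 2 or 4 or NKT-3 library 1, 3 or 4 was left out, with adjusted p from 0.051 to 0.157, and with no filter on low genes (adjusted p = 0.064). DN1eP-NKT were below NKT-3 by a difference of -0.98 ± 0.27 (adjusted p = 0.0065), and by -1.11 within the higher set (adjusted p = 0.0019), where their means differed 2.15-fold; without the set term the difference was 0.015. From NKT-1 they differed by -0.34, with an interval of -0.92 to 0.24, and from DN1eP by -0.65, with an interval of -1.32 to 0.03. Without the set term these were 0.85 and 1.34, neither called (adjusted p = 0.31 and 0.091), and all 4 DN1eP-NKT libraries were above all 4 DN1eP libraries in FPKM. The direction of Ly9 between these groups therefore rests on the assumption about the library set.

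Cd84, another self-binding receptor, was at 21.1, 15.4, 20.5 and 18.7 FPKM in DN1eP-NKT. NKT-1 had 40.3 and 62.8 FPKM in the higher set and 44.5, 57.9 and 44.2 FPKM in the lower, and NKT-2 had 39.1, 77.7, 63.6 and 64.3 against 51.0, 55.6 and 42.0 FPKM. NKT-3 had 64.8, 51.9 and 69.0 FPKM in the higher set and 44.3, 35.0 and 31.9 FPKM in the lower. The 3 stages overlapped over both sets, and NKT-3 differed from NKT-1 by -0.09 with an interval of -0.44 to 0.27 and from NKT-2 by -0.18 with an interval of -0.50 to 0.15. In thymic cells the higher set lay above the lower by 0.365 ± 0.145 on the log2 scale (limma, adjusted p = 0.028). DN1eP had 52.5, 54.0, 60.3 and 54.5 FPKM. DN1eP-NKT were below all other libraries of the series. Their mean was 2.72-, 3.23- and 3.27-fold lower than those of NKT-1, NKT-2 and NKT-3 in the higher set. The fitted differences were -1.56 ± 0.21, -1.65 ± 0.19 and -1.47 ± 0.19 (limma, adjusted p = 1.1e-06, 7.2e-08 and 8.5e-07), and -1.87 ± 0.24 against DN1eP (adjusted p = 1.3e-06). The first 3 were called within the higher set as well. The T-lineage marker sum was likewise lowest in DN1eP-NKT, though within the higher set it overlapped NKT-1 and NKT-2, and its part in the Cd84 and Sh2d1a values was not tested. NKT-3 differed from DN1eP by -0.40 (adjusted p = 0.15), and by -0.58 with only those 2 groups fitted (adjusted p = 0.048).

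Slamf1, which encodes CD150, had the lowest level of the route in stage 2 and stage 1 apart from Cd244. It was at 5.02, 9.89, 12.1 and 9.49 FPKM in DN1eP-NKT. Across the thymic stages it ran from 2.11 to 3.89 FPKM in NKT-1, from 1.78 to 4.53 FPKM in NKT-2 and from 0.696 to 5.74 FPKM in NKT-3. DN1eP had 7.27, 11.7, 6.63 and 3.51 FPKM. The stages overlapped, and NKT-3 differed from NKT-1 by -0.12 with an interval of -0.68 to 0.43. In thymic cells the higher set lay above the lower by 0.56 ± 0.19 on the log2 scale (limma, adjusted p = 0.012). DN1eP-NKT were higher than NKT-1 by 1.15 ± 0.32 (limma, adjusted p = 0.0096), than NKT-2 by 0.99 ± 0.29 (adjusted p = 0.015) and than NKT-3 by 1.27 ± 0.31 (adjusted p = 0.0021). In the higher set their mean was 2.96-, 2.52- and 2.30-fold that of NKT-1, NKT-2 and NKT-3, and single libraries overlapped with NKT-3. The call against NKT-2 was lost without DN1eP-NKT library 3 (0.85, adjusted p = 0.069).

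Each thymic stage was lower than DN1eP in Slamf1, with differences of -1.38 ± 0.31 for NKT-1 (limma, adjusted p = 0.0008), -1.22 ± 0.30 for NKT-2 (adjusted p = 0.0024) and -1.51 ± 0.31 for NKT-3 (adjusted p = 0.00093). Within the lower set the adjusted p by limma was 0.015, 0.043 and 0.011. There, DN1eP libraries 2, 3 and 4 had wider deposited intervals than the thymic libraries, and the part of this was not tested. The NKT-2 call was not made in that set once library 6 of NKT-2 and library 5 of NKT-3 were left out (-0.88, adjusted p = 0.17). Over all libraries, with replicate number as a further term, the NKT-2 call was also lost (limma, -0.89, adjusted p = 0.149). DN1eP-NKT differed from DN1eP by -0.23, with an interval of -1.01 to 0.54; without the set term this was 0.33, not called. Mast and basophil markers, of which 4 to 5 of 6 reached 1 FPKM, summed to 56.3 to 450 FPKM in DN1eP. Their medians were 0.14, 0.20 and 0.07 FPKM in NKT-1, NKT-2 and NKT-3, though NKT-1 library 3 was at 73.4 FPKM. Myeloid markers, with 2 to 3 of 6 at 1 FPKM, summed to 23.8 to 273 FPKM in DN1eP. Their medians were 2.54, 1.24 and 1.70 FPKM in the stages, though NKT-2 library 6 was at 67.1 and NKT-3 library 5 at 26.6 FPKM. Single stage libraries thus overlapped DN1eP in both sums. The part of these markers in the Slamf1 and the other differences from DN1eP was not tested.

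Sh2d1a encodes SAP, the adaptor that the receptor tails bind. It was at 34.9, 26.2, 30.3 and 30.9 FPKM in DN1eP-NKT, below every other library of the series. NKT-1 had 124 and 78.6 FPKM in the higher set and 364, 340.0 and 334 FPKM in the lower. NKT-2 had 119, 140.0, 185 and 101 FPKM in the higher set and 325, 195 and 248 FPKM in the lower. In both stages every lower-set library was above every higher-set library. NKT-3 had 76.0, 75.7 and 78.0 FPKM in the higher set and 186, 137 and 142 FPKM in the lower. DN1eP had 136, 195, 144 and 158 FPKM. Here the higher-median set lay lower, by -1.18 ± 0.15 on the log2 scale in thymic cells (limma, adjusted p = 4.0e-07), opposite to Ly9 and Fyn.

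NKT-3 lay below NKT-2 in Sh2d1a without overlap in each set, and below NKT-1 without overlap in the lower set. In the higher set, where NKT-1 had 2 libraries, NKT-3 library 3 (78.0 FPKM) nearly met NKT-1 library 2 (78.6 FPKM). Their deposited intervals were 46.7 to 89.7 and 47.2 to 91.5 FPKM. The NKT-3 mean was 1.33-fold lower than NKT-1 in the higher set and 2.23-fold lower in the lower set, and 1.78- and 1.65-fold lower than NKT-2. The fitted differences were -0.83 ± 0.18 (limma, adjusted p = 0.00071) and -0.76 ± 0.17 (adjusted p = 0.0009). Only the lower set gave a call against NKT-1 (adjusted p = 0.0021, and 0.30 in the higher set), and only the higher set gave one against NKT-2 (adjusted p = 0.0096, and 0.074 in the lower set). Without the set term the differences were -0.95 and -0.68 and neither passed (adjusted p = 0.073 and 0.23). The difference between the sets in the stage effect was tested as an interaction, which called 0.48% of all genes and 0 of the 7 by limma. At an unadjusted p under 0.05 it gave 2 of the 7, Slamf6 (adjusted p = 0.49) and Sh2d1a (adjusted p = 0.60); under quantile normalization Slamf6 was called (adjusted p = 0.045).

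DN1eP-NKT were below NKT-1 in Sh2d1a by a difference of -2.04 ± 0.22 (limma, adjusted p = 3.7e-08), below NKT-2 by -1.97 ± 0.20 (adjusted p = 1.0e-08) and below NKT-3 by -1.21 ± 0.21 (adjusted p = 4.7e-05). In the higher set their mean was 3.32-, 4.45- and 2.51-fold lower, and each difference was called there. Against DN1eP the difference was -1.15 ± 0.26 (limma, adjusted p = 0.0012). With replicate number as a further term it was -0.76 and not called (adjusted p = 0.093). NKT-1 and NKT-2 were above DN1eP by 0.89 ± 0.21 and 0.83 ± 0.21 (adjusted p = 0.0014 and 0.0025); without the set term these were 0.42 and 0.15 and not called, and with only NKT-2 and DN1eP fitted the second was 0.67 (adjusted p = 0.064). NKT-3 differed from DN1eP by 0.06 with an interval of -0.36 to 0.49. The deposited FPKM of Sh2d1a lay outside its own deposited interval in 15 of 26 libraries, that of Ly9 in 11 and that of Slamf6 in 6.

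Fyn, the Src-family kinase that SAP recruits, did not differ between any pair of groups by the test. It was at 72.9, 84.7, 89.3 and 87.7 FPKM in DN1eP-NKT. NKT-1 had 85.5 and 93.8 FPKM in the higher set and 30.3, 31.6 and 15.5 FPKM in the lower. NKT-2 ran from 83.9 to 92.5 FPKM in the higher set and from 14.4 to 23.2 FPKM in the lower, and NKT-3 from 80.5 to 93.6 and from 18.7 to 25.6 FPKM. DN1eP had 27.8, 29.6, 28.2 and 19.9 FPKM. Within a set the groups overlapped. The sets were apart by 1.96 ± 0.13 on the log2 scale in thymic cells (limma, adjusted p = 1.2e-11). NKT-3 differed from NKT-1 by -0.09 with an interval of -0.42 to 0.25, and DN1eP-NKT differed from NKT-2 by -0.03 with an interval of -0.39 to 0.33. DN1eP-NKT against DN1eP gave -0.32 with an interval of -0.80 to 0.15. Without the set term that value was 1.64 and called (adjusted p = 0.032), so the direction of Fyn between these 2 groups rests on the assumption about the library set. The other 9 Fyn differences also turned without the set term, and none of those was called.

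**Figure D3:**
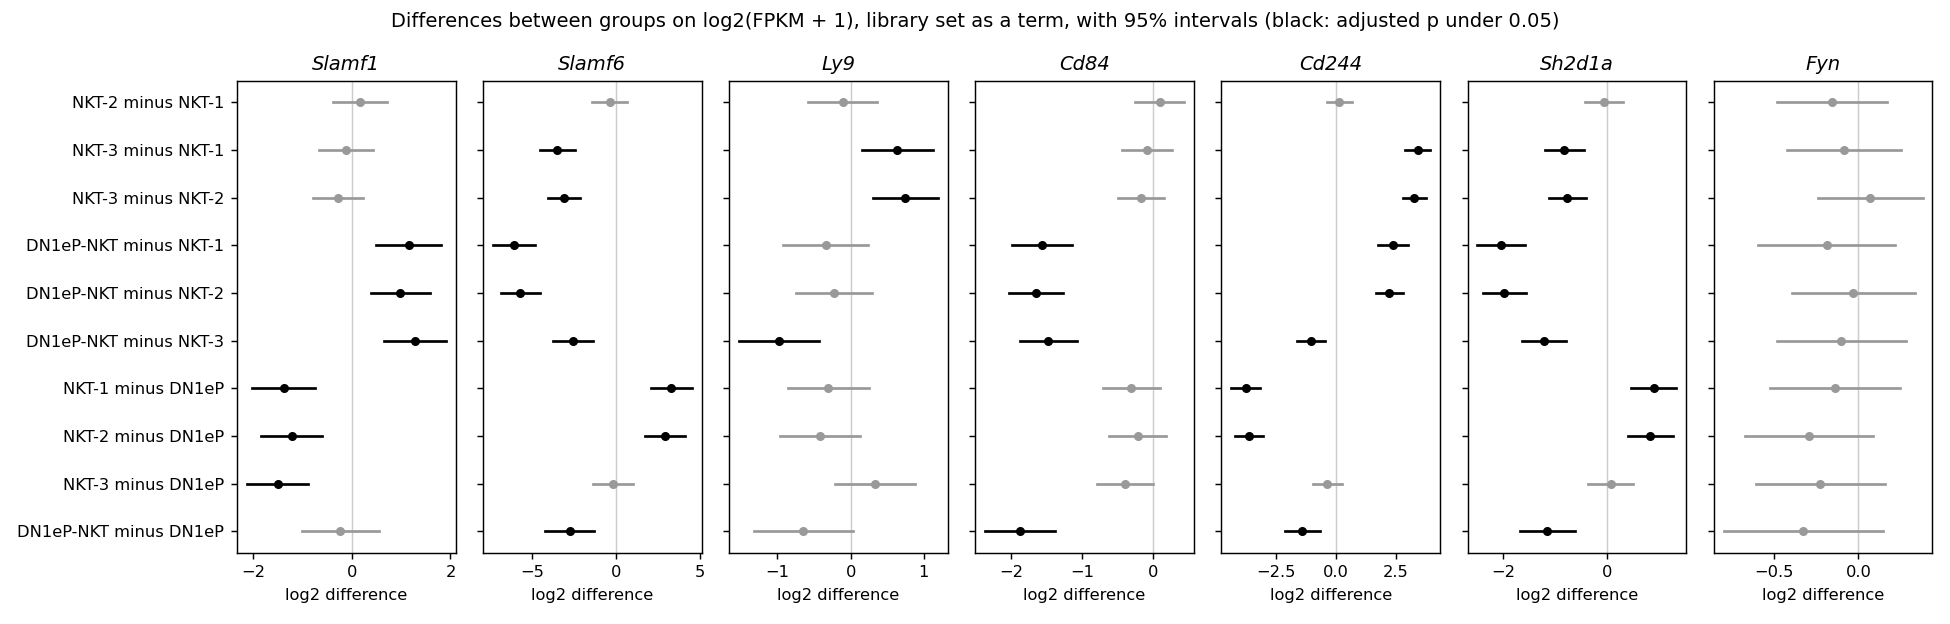
Fitted log2 differences of the 7 genes (one panel each, horizontal axes of different ranges) with 95% intervals for 10 comparisons, the group named first minus the group named second; black marks an adjusted p under 0.05. Slamf6 and Cd244 have opposite signs at stage 3 (-3.49 and 3.40 against NKT-1), Cd84 and Sh2d1a are below 0 in the 4 DN1eP-NKT comparisons, and each Fyn interval crosses 0.

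The make-up of the receptor transcripts differed by group. As a share of the summed FPKM of the 5 receptors, which is per transcript length, Slamf6 made up 0% to 0.29% in DN1eP-NKT. Its share was 29.9% to 31.8% in the higher set and 31.3% to 48.9% in the lower set of NKT-1, and 25.2% to 28.4% and 16.9% to 40.2% in NKT-2. In NKT-3 the share was 0.95% to 1.75% in the higher set and 6.40% to 7.41% in the lower, and in DN1eP 0.15% to 10.6%. Ly9 was the leading receptor in DN1eP-NKT, with 65.7% to 79.9%, in higher-set NKT-1 and NKT-2, with 45.0% to 46.6% and 45.3% to 51.2%, in NKT-1 library 5, with 34.4%, and in NKT-3, with 70.6% to 76.4% in the higher set and 41.8% to 49.6% in the lower. In DN1eP the leading receptor was Cd84, with 36.9% to 50.5%, except where Ly9 was at 37.7% in 1 library. The contrast between DN1eP-NKT and DN1eP coincides with the library set, by which Ly9 differed in thymic cells. The sum itself ran from 114 to 153 FPKM in DN1eP-NKT and from 117 to 146 FPKM in DN1eP.

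**Figure D4:**
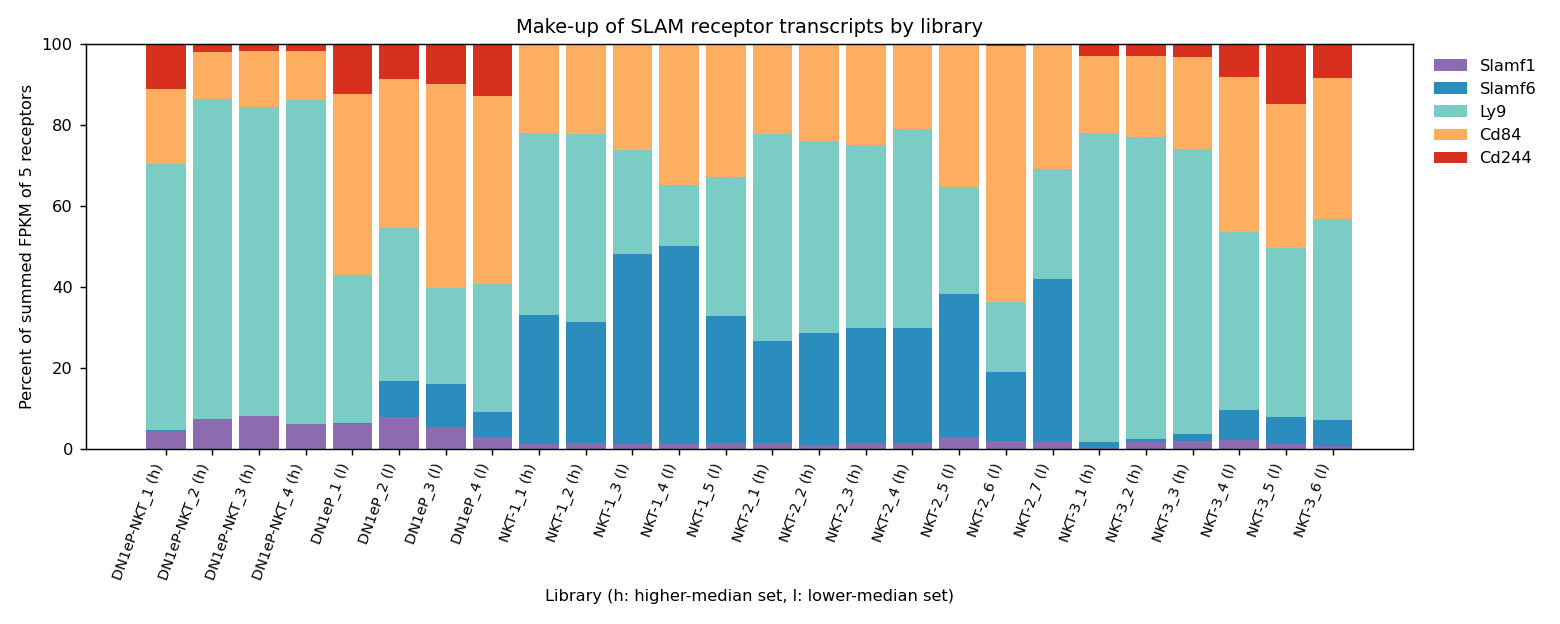
Share of each of the 5 receptors in their summed FPKM (vertical axis, percent), one bar per library, with h and l for the higher- and lower-median set. Slamf6 fills 16.9% or more of every NKT-1 and NKT-2 bar and at most 7.41% of every NKT-3 bar.

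Other genes of the route were described from 5 lists, whose counts stand beside the all-gene shares given above for each comparison. Of the other SLAM family genes with CD48, 2 of 4 were tested. Slamf7, a further receptor of the cluster, was at 37.2, 46.6, 61.3 and 58.8 FPKM in DN1eP-NKT, 0.46 to 3.57 FPKM in NKT-1, 2.77 to 4.94 FPKM in NKT-2, 38.8 to 86.7 FPKM in NKT-3 and 24.8 to 69.4 FPKM in DN1eP. It thus rose at stage 3 with Cd244, by 4.45 ± 0.28 against NKT-1 (limma, adjusted p = 1.7e-12). Cd48, the ligand of Cd244, rose by 1.49 against NKT-1 and 1.07 against NKT-2 at stage 3. Both genes were also higher in DN1eP-NKT than in NKT-1 and NKT-2, both were lower in NKT-1 and NKT-2 than in DN1eP, and neither was called in the other 4 comparisons.

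Among 3 SAP-related adaptor genes, 0 were called in any comparison of stages. Of these, Sh2d1b2 reached 1 FPKM in 0 thymic NKT libraries and Sh2d1b1 in 1. The stage comparisons of both were near the floor and say little about either. Sh2d1b1, which encodes EAT-2, was lower in all 3 stages than in DN1eP (-2.04, -1.86 and -1.91 for stages 1, 2 and 3); it reached 1 FPKM in 3 DN1eP, 2 DN1eP-NKT and 1 NKT-2 libraries, so it was tested mainly through the group where it is high. Also lower in all 3 stages was Sh2d2a (-0.78, -0.58 and -0.61). Sh2d2a was also lower in DN1eP-NKT than in DN1eP (-0.98) and than in NKT-2 (-0.40). Of 9 genes of the PKCθ and NF-κB branch, 0 were called between NKT-2 and NKT-1. NKT-3 had 1 higher and 1 lower than NKT-1 (Malt1, a paracaspase, 1.62; Prkcq, which encodes PKCθ, -0.35) and 2 higher than NKT-2 (Malt1 1.45 and Ikbkb 0.47). DN1eP-NKT had 1 higher and 1 lower than NKT-1 (Malt1 0.90, Prkcq -0.81) and than NKT-2, and 1 higher and 2 lower than NKT-3 (Nfkb1 0.57, Malt1 -0.72, Prkcq -0.46). Against DN1eP, 3, 4 and 1 of the 9 were lower in NKT-1, NKT-2 and NKT-3, where 18.9%, 21.3% and 17% of all genes were lower, and 1 was higher in NKT-3. DN1eP-NKT had 1 higher and 3 lower than DN1eP.

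Of 6 SH2 phosphatase and Ras inhibitor genes, 0 were called between NKT-2 and NKT-1, and 2 were higher in NKT-3 than in either earlier stage, where 10.4% and 10.9% of all genes were higher. These were Ptpn6, which encodes the phosphatase SHP-1 (0.74 and 0.90), and Dok1 (0.74 and 0.87). Ptpn6 was lower in DN1eP-NKT than in NKT-1, NKT-2 and NKT-3 (-1.32, -1.15 and -2.05), as was Rasa1, a Ras GTPase activator (-0.65, -0.77 and -0.56), while Dok2 was higher than in NKT-1 (0.94) and NKT-2 (0.77). Against DN1eP, 1, 1 and 3 of the 6 were higher in NKT-1, NKT-2 and NKT-3, and DN1eP-NKT had 2 higher and 2 lower.

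Of 11 Src-family kinase genes and their regulators, 10 were tested. NKT-3 had 5 higher than NKT-1, among them the kinase genes Fgr (1.71) and Lyn (1.61) and the phosphatase gene Ptprc (1.04), and 6 higher than NKT-2, beside 10.4% and 10.9% of all genes, while NKT-2 had 0 called against NKT-1. The largest of those against NKT-2 were Fgr, Lyn and Src. The Src mean in the higher set was 5.91 FPKM in NKT-3 and 0.498 FPKM in NKT-2. In the lower set these means were 0.216 and 0.0795 FPKM, both near the floor. Yes1 was at 4.84 to 10.1 FPKM in DN1eP-NKT, 0.318 to 1.35 FPKM in NKT-3 and at most 0.184 FPKM in NKT-1 and NKT-2. It reached 1 FPKM in 4 DN1eP-NKT and 2 NKT-3 libraries, so it entered the test through DN1eP-NKT, and its calls there are a description. The stroma markers given above were likewise higher in DN1eP-NKT, and their part in the Yes1 value was not tested. Against NKT-3, DN1eP-NKT had 3 lower, where 8.55% of all genes were lower, with Fgr at -1.63 and Lyn at -0.85. Against DN1eP, 1 gene was higher in each stage, and 3, 4 and 1 were lower in NKT-1, NKT-2 and NKT-3; in DN1eP-NKT 4 were lower.

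**Figure D5:**
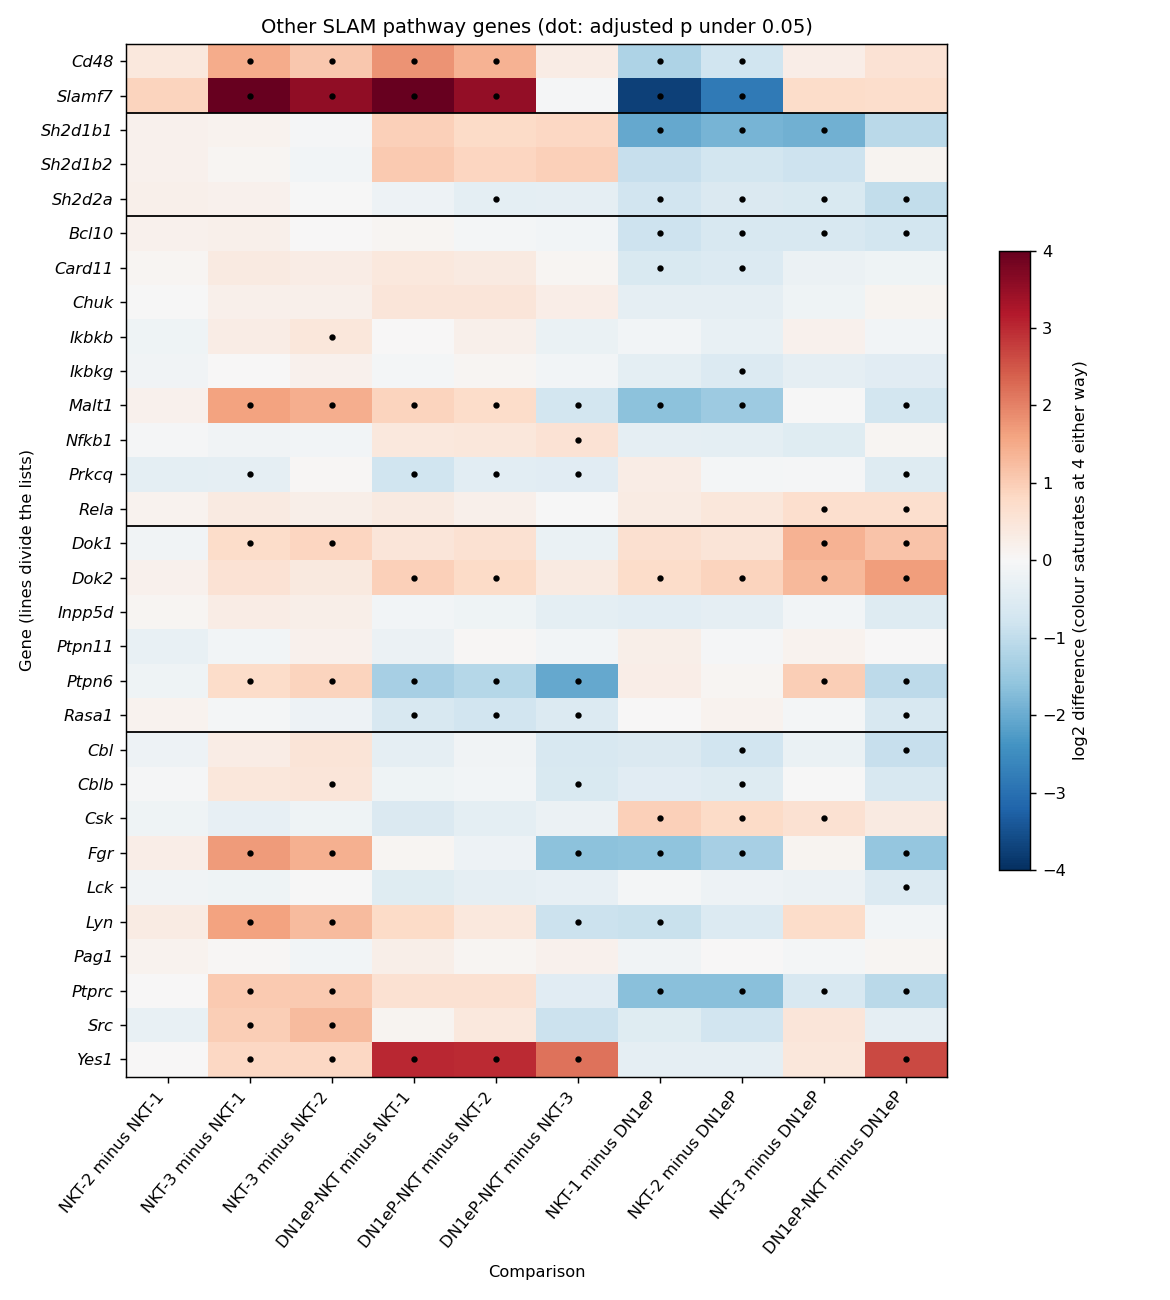
Fitted log2 differences (colour; red is higher in the group named first) of 30 tested genes of the 5 lists, by comparison; dots mark an adjusted p under 0.05 and lines divide the lists. The column for NKT-2 minus NKT-1 has no dot, and Slamf7 has its strongest colours in the comparisons with NKT-1.

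Across all 26 libraries, after the set effect was taken out, Slamf6 and Sh2d1a had a correlation of 0.901 and Cd84 and Sh2d1a one of 0.727, while Slamf6 and Cd244 had one of -0.72. These describe the pattern over libraries of 5 groups, which share their group, and carry no test. Among genes with a mean of 10 FPKM or more, those with the pattern most like each member, by Pearson's r over the 26 libraries, were as follows. For Slamf6 they were Adh1 (0.963), Zbtb16 (0.923), which encodes PLZF, and Treml2 (0.914). For Cd244 they were Ppm1h (0.960), the perforin gene Prf1 (0.956) and Dennd4a (0.947). For Sh2d1a they were Fam3c (0.934), Smpdl3a (0.922) and Afp (0.914). Cd84 was most like Bcl2a1d (0.944), Bcl2a1b (0.935) and Bcl2a1a (0.934), near-identical copies among which reads could be split, so these are uncertain. Slamf1, Ly9 and Fyn had lower values, with Znhit3, Asl and Atp6v0b at 0.812, 0.804 and 0.802 for Slamf1, 4930420K17Rik, Uhmk1 and Gimap9 at 0.812, 0.797 and 0.790 for Ly9, and Atp1b3 and Akirin1 at 0.823 and 0.821 for Fyn.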

How the data were processed

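The authors aligned the reads with TopHat2 2.0.6 to mm9 and deposited 1 gene table per library with FPKM from Cufflinks 2.1.1, per the submitters' processing notes. Rows of 1 symbol were summed; 86 symbols that some table lacks and 13 whose estimate failed were dropped, which left 23168. The test took the 11663 symbols that reached 1 FPKM in 4 libraries or more, on log2(FPKM + 1) of the deposited values, with limma 3.58.1 (R 4.3.3; trend and robust options) over all 26 libraries, with group and library set as terms; sets were divided at a median of 11 FPKM. Calls used a Benjamini-Hochberg adjusted p under 0.05. The fit was tested on simulated data. Tables and plots used Python 3.11.15, pandas 2.3.3, numpy 2.4.6 and matplotlib 3.10.9. No 2 libraries were identical. The 7 genes, the lists and the set term were chosen with earlier results of these data known. All 7 genes were named throughout; of each list, counts and up to 3 called genes with the largest change; and 3 genes most like each member, of which 1 is not reported here. Alternatives covered pseudocount, filter, scaling, set term, samples and left-out libraries; 1 (the lower set without 2 libraries) was chosen after seeing the data.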

Additional observations from a re-analysis of the deposited data

Results flagged for a closer look

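Of 35 sets of 1 gene in 1 group, 4 held a library far from the others. Chance flags about 1 in 20 where values spread normally, which does not hold for sets listed mostly at 0. Cd244 was at 12.6 FPKM in DN1eP-NKT library 1, against 2.48 to 2.57 FPKM in the other 3 libraries of that group. In that library markers of NK cells and innate lymphoid cells summed to 175 FPKM, against 26.7 to 34.1 FPKM in the others. Stroma markers summed to 73.3 FPKM there, against 257 to 383 FPKM. The median interval half-width was 7.02%, against 15.9% to 21.7%. The part of these in the value was not tested. Cd244 was at 0.120 FPKM in NKT-1 library 3, against 0 to 0.0134 FPKM in the other 4, and mast and basophil markers summed to 73.4 FPKM in that library, against at most 0.41 FPKM in the other NKT-1 libraries. Slamf1 was at 3.89 FPKM in NKT-1 library 2, against 2.11 to 2.27 FPKM in the other 4. Slamf6 was at 0.329 FPKM in DN1eP-NKT library 1 and listed at 0 in the other 3, a case in which any value above 0 is flagged. This flag and that of Cd244 in NKT-1 lie near the floor and say little.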

How the results depend on the processing

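Of 2562 values of the 7 genes under alternatives, 2450 kept direction and call, 74 turned direction but were called neither way, 35 lost the call, 1 gained it and 2 turned with a call on one side. With a library left out, 7 of 1820 values lost the call. The 2562 and the 1820 both include differences that were not called as fitted and so could not lose a call. Of the 74, 17 were without the set term (9 of Fyn, 6 of Ly9, 1 each of Slamf1 and Sh2d1a). The 2 were Ly9 in DN1eP-NKT against NKT-3 (0.015 without the set term) and Fyn in DN1eP-NKT against DN1eP (1.64 without it). Genes called among the 7, 4 as fitted, were 2 without the set term for NKT-3 against NKT-1 and for NKT-3 against NKT-2, 1 in the lower set for NKT-3 against NKT-2, and 2 for NKT-2 against DN1eP with only the compared groups fitted; NKT-3 against DN1eP then had 2 in place of 1. In the lower set less library 6 of NKT-2 and library 5 of NKT-3, they were 2 for NKT-3 against NKT-1 and 1 against NKT-2, from fewer samples. The interaction of stage and set called 1 of the 7, Slamf6, under quantile normalization, with 79 genes in all (56 as fitted). Residuals of same-numbered libraries correlated from -0.379 to 0.494. The highest were between libraries numbered 1: 0.48 for NKT-2 and NKT-1, 0.494 for DN1eP-NKT and NKT-1 and 0.423 for DN1eP-NKT and NKT-2. Whether these share a batch was not tested, and the main fit did not pair libraries by number. With a replicate block beside the set term, 1 of the 7 was called for DN1eP-NKT against DN1eP. The calls of Slamf6, Cd244 and Sh2d1a in that comparison were lost, as was that of Slamf1 for NKT-2 against DN1eP. All-gene calls were then 41, 2163, 1281 and 2385 for NKT-2 against NKT-1, NKT-2 and NKT-3 against DN1eP, and DN1eP-NKT against DN1eP (93, 4232, 2656 and 3748 as fitted). Without the set term they were 27 for NKT-2 against NKT-1, 2180 and 1460 for NKT-3 against NKT-1 and NKT-2, 2716 and 1681 for NKT-1 and NKT-3 against DN1eP and 6136 for DN1eP-NKT against DN1eP (93, 4404, 3438, 4624, 2656 and 3748 as fitted). The higher set alone gave 26 for NKT-2 against NKT-1, and the lower set 15, 2155, 830, 2512 and 1545 for NKT-2 and NKT-3 against NKT-1, NKT-3 against NKT-2, and NKT-2 and NKT-3 against DN1eP. The compared groups alone gave 49, 2686, 2362 and 1586 for NKT-2 against NKT-1 and for stages 1, 2 and 3 against DN1eP. Except where a group or set was left out, the causes were not tested. Cd244, listed at 0 in many libraries, and Slamf1 are limited by low levels.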
